A study of Gallus gallus with 2 samples.

Results

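The potassium channel genes were taken as every row of the deposited gene tables whose symbol starts with KCN, which gave 79 of 29558 rows. The data were UMI counts (UMIs are tags that mark single captured RNA molecules) from dissociated visceral peritoneum of 40-day-old female Huiyang Bearded chickens. One library was labelled HVP, for hyperpigmentation of the visceral peritoneum, and one was labelled Normal, with tissue of 10 birds pooled into each and no treatment named in the labels. With 1 library per group there were no replicates and no test could be run, so every interval below is a 95% interval that covers counting error only. The file names give each library the other group's name, so a direction between the libraries would turn around if the file names were right.

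Potassium channels let potassium ions cross the cell membrane and so set its resting voltage and its recovery after excitation. The pore is formed by voltage-gated (Kv), inward-rectifier, 2-pore-domain, or calcium-activated subunits, while KCNE, KCNMB, KCNAB, and KCNIP genes code for accessory subunits that bind to a pore and change its gating or its place in the membrane. In vessel walls, these channels are best known for setting vascular tone in endothelium, pericytes, and smooth muscle.

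Barcodes with more than 1000 detected genes were kept, which left 5866 of 7157 barcodes and 34391591 UMIs in the library labelled HVP and 5464 of 6981 barcodes and 24927669 UMIs in the library labelled Normal. The median kept cell held 5345 UMIs in the former and 3818 in the latter, and 14 barcode sequences occurred in both libraries. The cells were clustered without any KCN gene, which gave 14 and 12 clusters, and a cluster received a class name with "-like" only from marker genes that held no KCN gene. A name was given to 11 of the clusters labelled HVP and 7 of those labelled Normal. Over 12466 genes, 11 pairs of clusters were each other's best match between the libraries, and 7 of them carried the same class name in both.

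Pericytes, the cells wrapped around small vessels, were not recovered as a named class. The cluster that led for *KCNJ8* carried pericyte markers, with a summed level of 7237 CPM (UMIs per 1000000 UMIs of the group) over 5 markers in the library labelled HVP and 6281 CPM in the library labelled Normal. Its leading genes held the adipocyte marker *ADIPOQ* and no pericyte marker, and its 8 smooth muscle markers summed to 7793 CPM and 4660 CPM. Adding *KCNJ8* and *ABCC9* to the pericyte markers did not give it a name. It is therefore called the *RGS5 ADIPOQ* cluster. The cluster labelled Normal that matched the smooth muscle-like cells stayed unnamed too, because fast skeletal muscle genes led it. It summed to 16924 CPM over 8 smooth muscle markers, close to the 17820 CPM in the library labelled HVP, but to 6146 CPM over 6 skeletal muscle genes against 28.5 CPM. The part of skeletal muscle RNA in the values of that cluster was not tested.

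At least 1 UMI of 77 members was found in the kept cells of the library labelled HVP and of 74 in the library labelled Normal. Together the members took 59198 UMIs, or 1721 CPM, in the former and 47545 UMIs, or 1907 CPM, in the latter. CPM here means the UMIs of a gene over all UMIs of a group of cells, both summed over its cells. A gene was called enriched in a group when the group held at least 10 of its UMIs and at least 4 times the CPM of all other kept cells of that library. In the library labelled HVP, 50 of 59 members with enough UMIs to be called were enriched in at least 1 group, where 36.0% of all 14865 such genes were. In the library labelled Normal, 42 of 52 members were enriched, against 32.7% of 14844 genes.

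Many members were enriched in the same cells of both libraries. In a class of the same name, 23 of 40 members were enriched in both, against 16.0% of 13293 genes, and in the same of the 11 matched pairs 36 of 46 members were, against 23.1% of 13669 genes. These 36 members made 41 calls, since 31 of them had 1 pair and 5 had 2. Blood endothelial-like cells held 13 of the calls and the smooth muscle pair 7. The former also held adipocyte markers, which summed to 14119 CPM labelled HVP and 23019 CPM labelled Normal over 5 genes, and whose part in the calls was not tested. Tenocyte-like cells held 4, and mesothelial-like cells held none. The pairs differed in size, with 1105 and 1346 blood endothelial-like cells against 70 and 76 mesothelial-like cells. The share of all genes called in each pair is not given here. These counts by pair therefore do not show that channel genes differ from other genes.

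**Figure D1:**
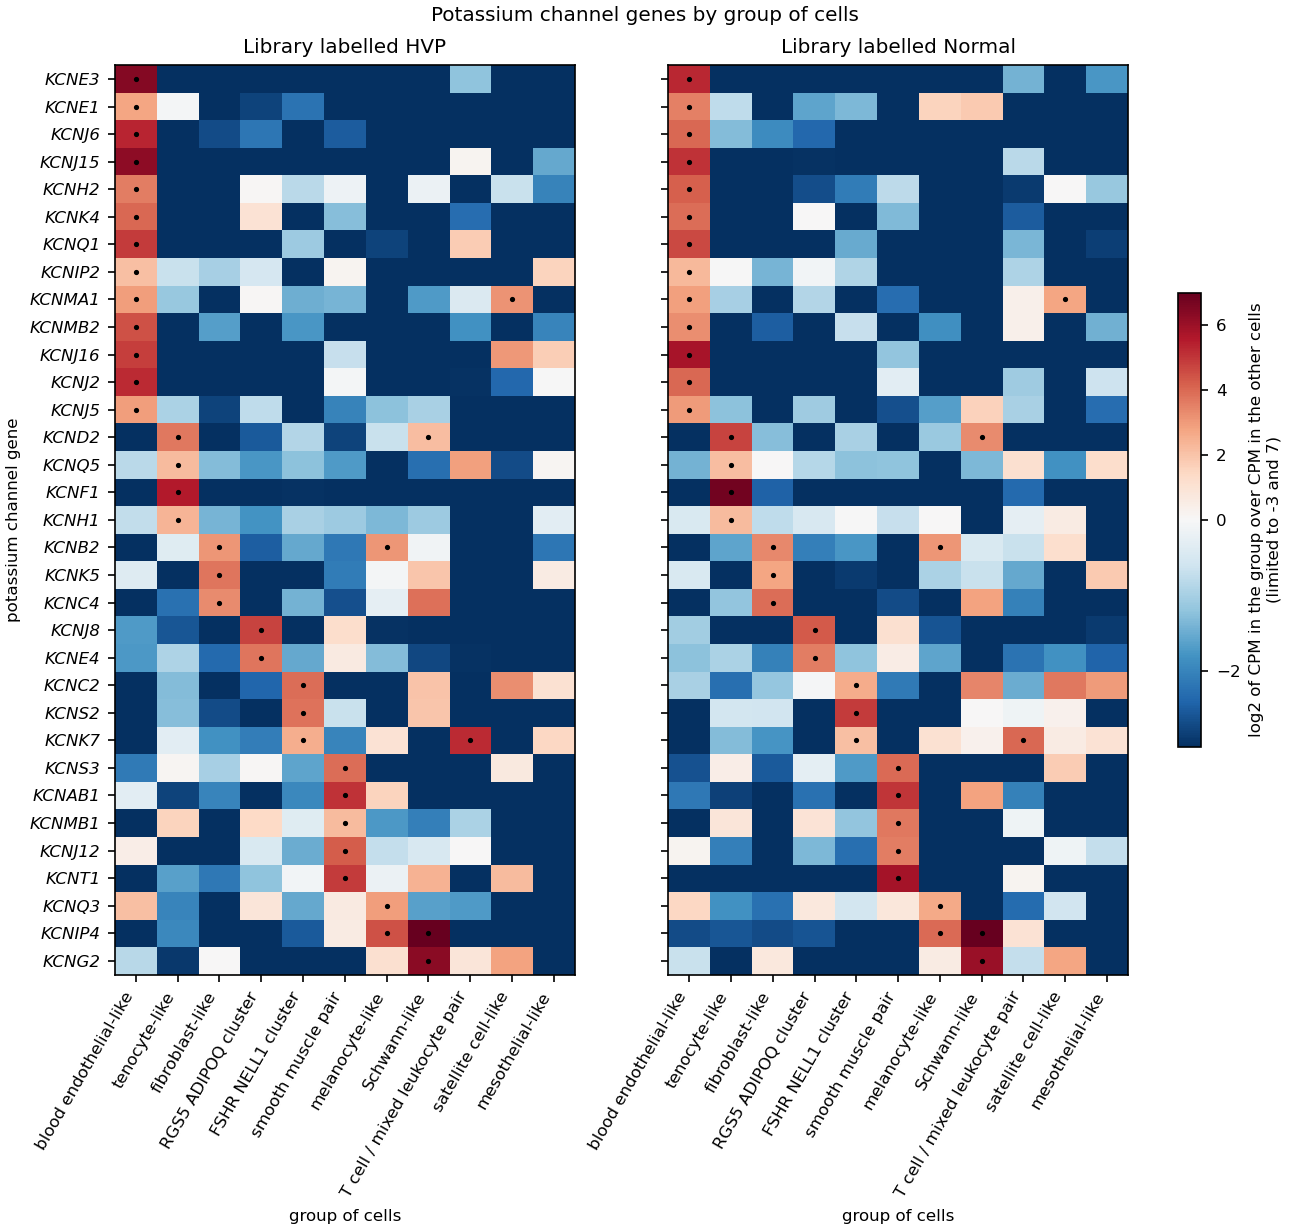
Each row is 1 of 33 potassium channel genes enriched in the same pair of both libraries, each column a matched group of cells, and the colour the log2 of the CPM in the group over the CPM in the other kept cells of that library with the scale cut off at both ends. Black dots mark their 38 calls, of which 13 fall in blood endothelial-like cells and 4 in tenocyte-like cells.

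The Kv7 genes, which code for slowly opening voltage-gated pores, carried the most UMIs of all families, with 43.1% of the KCN UMIs labelled HVP and 46.4% of those labelled Normal. These shares are of 3′ UMIs, which are not per length, and whether intronic reads were counted is not given in the sources used here. *KCNQ1* (chr5:12837708-13159212, GRCg7b), the pore of the slow delayed current of the heart and of many epithelia, stood at 1194 CPM (interval 1166 to 1223) in blood endothelial-like cells labelled HVP and at 40.8 CPM in the other cells. The library labelled Normal gave 1629 CPM (1600 to 1660) and 66.5 CPM, so the ratios were 29.3 and 24.5. After each cell was thinned to 2000 UMIs, 58.1% of 1054 endothelial-like cells held a *KCNQ1* UMI in the former library and 61.8% of 1247 in the latter (65.3% and 67.5% without thinning). In melanocyte-like cells, which served as the background, it was 6.38% and 4.92%, and the median depth was 3840 and 3391 UMIs against 4062 and 4228 in endothelial-like cells. Other groups held more *KCNQ1* than that background. T cell-like cells labelled HVP stood at 775 CPM and the mixed leukocyte cluster labelled Normal at 202 CPM. The unnamed *FSHR NELL1* cluster stood at 117 CPM labelled HVP and 186 CPM labelled Normal, where *KCNQ1* made up 27.5% of its KCN UMIs.

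*KCNQ5* (chr3:81242885-81506409), a Kv7 pore known from neurons and vascular muscle, had UMIs in every cluster of both libraries. It reached 1211 CPM in tenocyte-like cells labelled HVP and 996 CPM in those labelled Normal, which was 4.64 (4.49 to 4.79) and 4.41 (4.20 to 4.62) times the level of other cells. Tenocytes are the collagen-making cells of tendon and fascia. Its highest level of all lay in T cell-like cells of the library labelled HVP, at 3130 CPM (2909 to 3362) over 64 cells, where 86.7% of 60 thinned cells held a UMI. The matching mixed leukocyte cluster of the library labelled Normal stood at 621 CPM, a ratio of 2.18, and so did not pass the rule. At a finer resolution of 0.5, that cluster split, and *KCNQ5* was at 840 CPM (788 to 895) in 208 cells led by *MZB1*, *CD8A*, and *JCHAIN* and at 47.8 CPM (29.6 to 73.1) in 127 cells led by *IL8L1*, *RNASE6*, and *C1QC*. The first of these held 963 of the 984 *KCNQ5* UMIs of the cluster. Mesothelial-like cells, the lining of the peritoneum, had no enriched member, and *KCNQ5* led there with 65.7% and 62.9% of their KCN UMIs, at 488 CPM (HVP) and 713 CPM (Normal).

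*KCNQ3*, a pore of the M-current of neurons, was enriched in melanocyte-like cells. It stood at 375 CPM in those labelled HVP (ratio 7.47, 6.29 to 8.83) and at 361 CPM in those labelled Normal (ratio 6.33, 4.98 to 7.94). These cells held 8.19% and 5.31% of its UMIs. *KCNQ3* was enriched in blood endothelial-like cells labelled HVP as well, at 149 CPM (ratio 4.28, 3.90 to 4.69), with 46.2% of its UMIs. In those labelled Normal it stood at 110 CPM, a ratio of 2.73, and did not pass the rule.

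KCNE genes code for small single-pass partners of Kv pores and took 14.6% of the KCN UMIs labelled HVP and 14.1% of those labelled Normal. *KCNE3* (chr1:194589225-194591007), a partner of the *KCNQ1* pore, was enriched in blood endothelial-like cells at 599 CPM (579 to 619) labelled HVP and 397 CPM (383 to 412) labelled Normal, 87.1 (75.4 to 101) and 39.1 (33.6 to 45.6) times the other cells. These cells held 94.6% and 93.9% of all *KCNE3* UMIs. *KCNE1*, the partner that makes the slow cardiac current with *KCNQ1*, was enriched there too, on 40 and 64 UMIs. It stood at 6.96 CPM (ratio 6.87, 4.15 to 11.5) and 9.11 CPM (ratio 11.6, 6.46 to 22.5). Lymphatic endothelial-like cells labelled HVP had more *KCNE1*, at 56.9 CPM, but on 9 UMIs, too few for the rule. *KCNE4* (chr9:7794477-7797467), which inhibits several Kv pores, marked the *RGS5 ADIPOQ* cluster at 613 CPM (ratio 13.6) and 633 CPM (ratio 12.1). *KCNE2*, a partner of *KCNH2* and *KCNQ1*, passed the rule only in the 34 lymphatic endothelial-like cells of the library labelled HVP, at 303 CPM (224 to 402, ratio 6.73). In the library labelled Normal, lymphatic cells lay inside the blood endothelial-like cluster and separated at resolution 0.5 as 56 cells led by *MMRN1* and *STAB2*, where *KCNE2* stood at 227 CPM (168 to 301).

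Inward rectifiers pass potassium more easily into the cell than out of it and hold the resting voltage. Of these genes, 7 were enriched in a pair of both libraries, and 5 of the 7 lay in blood endothelial-like cells. *KCNJ2*, a strong rectifier of heart and endothelium, stood there at 171 CPM (161 to 182) labelled HVP and 141 CPM (132 to 150) labelled Normal, at ratios of 36.9 and 15.9. *KCNJ15* gave 40.5 CPM (ratio 77.4, 45.9 to 140) and 53.1 CPM (ratio 32.8, 22.4 to 49.6). *KCNJ5* and *KCNJ6*, are G protein-gated rectifiers. *KCNJ5* stood at 20.7 CPM (ratio 7.60) and 38.6 CPM (ratio 7.84), and *KCNJ6* at 14.3 CPM (ratio 40.8) and 8.11 CPM (ratio 16.1). Schwann-like cells labelled Normal reached 44.2 CPM of *KCNJ5*, but on 8 UMIs, too few for the rule, and the intervals overlapped. *KCNJ5* overlaps the genes *KCNJ1* and *ARHGAP33*, from which its reads may not be separable. *KCNJ6* was uneven over cells, since 1 endothelial-like cell labelled Normal gave 15 of its 57 UMIs there. At resolution 0.5, where a smaller cluster carried the blood endothelial name, its ratio in that library was 0.50. *KCNJ16*, an inward rectifier known from kidney, rested on 23 and 43 UMIs in these cells, with ratios of 28.6 (9.78 to 114) and 54.8 (14.3 to 467).

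*KCNJ8* (chr1:67006399-67014250), the pore of the vascular ATP-sensitive channel, marked the *RGS5 ADIPOQ* cluster. It stood at 1068 CPM (1032 to 1105) in that cluster labelled HVP and at 906 CPM (863 to 951) in that labelled Normal, against 40.2 CPM and 47.0 CPM in all other cells, ratios of 26.6 and 19.3. Of thinned cells, 73.5% of 646 and 71.8% of 515 held a *KCNJ8* UMI (89.3% and 84.5% without thinning), against 4.26% and 1.64% of melanocyte-like cells. The smooth muscle pair came second, with 29.6% and 26.8% of thinned cells. *KCNJ12*, a strong rectifier of muscle, was enriched in the smooth muscle pair, at 75.6 CPM (ratio 19.1, 15.0 to 24.4) labelled HVP and 85.6 CPM (ratio 11.9, 9.64 to 14.7) labelled Normal.

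The 2-pore-domain genes code for background leak channels and split over several cell groups. *KCNK4*, named TRAAK in mammals for its response to fatty acids and stretch, was at 464 CPM (447 to 482) in blood endothelial-like cells labelled HVP and 408 CPM (393 to 423) in those labelled Normal, at ratios of 16.3 and 14.8. The *RGS5 ADIPOQ* cluster came next with 186 CPM and 135 CPM of *KCNK4*. *KCNK5*, an acid-sensitive leak channel, was enriched in fibroblast-like cells at 53.6 CPM (ratio 13.2) and 25.4 CPM (ratio 6.68). Schwann-like cells labelled HVP reached 38.1 CPM of *KCNK5* on 13 UMIs, and mesothelial-like cells labelled Normal 30.1 CPM on 10 UMIs. Neither passed the rule, but both had intervals that overlapped those of fibroblast-like cells. *KCNK7* was enriched in the *FSHR NELL1* cluster, which stayed unnamed, at 13.7 CPM (ratio 5.76, 3.99 to 8.26) and 16.0 CPM (ratio 4.36, 2.68 to 6.87). *KCNK7* was enriched in leukocytes as well, at 113 CPM (74.5 to 165) in T cell-like cells labelled HVP and 36.6 CPM (27.8 to 47.3) in the mixed leukocyte cluster labelled Normal.

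Several members were enriched in leukocytes. *KCNK13*, a leak channel known from microglia and macrophages in mammals, was at 115 CPM (82.3 to 156) in myeloid-like cells labelled HVP, 135 times (81.6 to 225) the other cells. *KCNT2*, a sodium-activated pore, stood at 89.5 CPM (61.2 to 126) in the same cells, where 9 of its 32 UMIs came from 1 cell. In the library labelled Normal, the 40 *KCNK13* UMIs and the 33 *KCNT2* UMIs of the mixed leukocyte cluster all fell in the 127 cells led by *IL8L1*, *RNASE6*, and *C1QC*. The 58 *KCNK7* UMIs of that cluster all fell in the 208 cells led by *MZB1*, *CD8A*, and *JCHAIN*. *KCNAB2*, a Kv beta subunit, was enriched in myeloid-like cells labelled HVP with 12 UMIs and in the mixed leukocyte cluster labelled Normal with 28. Its level in myeloid-like cells, 33.6 CPM (17.3 to 58.6), overlapped that in T cell-like cells, 20.9 CPM (6.80 to 48.9, 5 UMIs), and it overlaps the genes *CHD5* and *NPHP4*, from which its reads may not be separable.

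*KCNMA1*, the pore of the large-conductance calcium-activated (BK) channel, was enriched in cells of different origin. Blood endothelial-like cells held 447 CPM (430 to 465) labelled HVP and 391 CPM (377 to 406) labelled Normal, at ratios of 7.64 and 7.32. Satellite cell-like cells, the muscle stem cells, stood higher at 1046 CPM (893 to 1219) over 33 cells and 969 CPM (817 to 1141) over 39 cells. There *KCNMA1* made up 68.2% and 63.2% of all KCN UMIs. Myeloid-like cells labelled HVP reached 632 CPM, and the 127 leukocytes led by *IL8L1* labelled Normal 467 CPM (405 to 535).

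The accessory beta subunits of this channel shared only part of the pattern of its pore. *KCNMB2*, which makes the channel close during long openings, was enriched in blood endothelial-like cells. It stood at 144 CPM (135 to 154, ratio 22.1) labelled HVP and 45.5 CPM (40.7 to 50.8, ratio 9.59) labelled Normal. Its ratio in the latter was 0.68 at resolution 0.5, where a smaller cluster carried the blood endothelial name. Lymphatic cells had more of *KCNMB2*, with 341 CPM (256 to 445) in the library labelled HVP and 256 CPM (192 to 334) in the 56 cells of the library labelled Normal. *KCNMB1*, the subunit known from smooth muscle, was enriched in the smooth muscle pair at 92.6 CPM (ratio 4.65, 3.93 to 5.48) and 127 CPM (ratio 12.9, 10.8 to 15.4). It overlaps *KCNIP1*, so reads of these genes may not be separable, and *KCNIP1* itself was enriched in that pair only in the library labelled Normal.

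Tenocyte-like cells carried a silent subunit, a Kv4 pore, and an EAG pore. *KCNF1* (chr3:96701325-96703786), a silent subunit that forms no channel alone and joins Kv2 pores, was at 55.6 CPM (50.1 to 61.5) in tenocyte-like cells labelled HVP and 53.7 CPM (45.2 to 63.4) in those labelled Normal. All other cells held 1.19 CPM and 0.49 CPM, so the ratios were 46.6 (32.6 to 68.7) and 109 (59.1 to 223). Of thinned tenocyte-like cells, 9.86% of 903 and 10.8% of 492 held a *KCNF1* UMI, against 0 of 94 and 0 of 61 melanocyte-like cells, which allows shares of up to 3.19% and 4.92%. The tenocyte-like cells were the deepest group, with median depths of 7296 and 5154 UMIs. *KCND2* (chr1:23681323-23949315), the Kv4 pore of fast transient currents, was enriched in tenocyte-like cells at 229 CPM (ratio 13.1) and 283 CPM (ratio 26.1). *KCNH1*, an EAG pore, was enriched there too, at 17.8 CPM (ratio 5.25) and 15.3 CPM (ratio 4.69), and it overlaps the gene *HHAT*.

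Schwann-like cells, the glia of peripheral nerve, had *KCND2* together with partners of Kv4 pores and a silent subunit. *KCND2* stood at 258 CPM (207 to 318) over 67 cells labelled HVP and at 370 CPM (287 to 470) over 47 cells labelled Normal. *KCNIP4* (chr4:74095738-74477833), a calcium-binding partner of Kv4 pores, gave 619 CPM (538 to 708) and 509 CPM (410 to 624), with ratios of 123 (100 to 152) and 197 (141 to 275), the highest of all 41 calls in the library labelled Normal. *KCNG2*, a silent subunit, was at 208 CPM (ratio 80.6) and 271 CPM (ratio 65.1). The peptidase-like Kv4 partners *DPP6* and *DPP10* were enriched in the same cells, *DPP10* at 1197 CPM (ratio 153) and 1299 CPM (ratio 91.8), and *DPP6* at 220 CPM and 199 CPM. *DPP6* was enriched in the *FSHR NELL1* cluster of both libraries as well. *KCNIP4* overlaps the gene *PACRGL* and spans 382 kb.

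*KCNB2*, a Kv2 delayed-rectifier pore, was enriched in fibroblast-like cells at 196 CPM (183 to 210, ratio 8.59) labelled HVP and 147 CPM (137 to 157, ratio 10.1) labelled Normal. Melanocyte-like cells held more, with 350 CPM (295 to 413) over 95 cells and 361 CPM (286 to 450) over 62 cells. *KCNIP4*, the Kv4 partner named above, was enriched in melanocyte-like cells as well, at 197 CPM (156 to 246) and 86.9 CPM (52.3 to 136). *KCNC4*, a Kv3 pore, was enriched in fibroblast-like cells at 14.0 CPM (ratio 10.1) and 8.66 CPM (ratio 15.1). Schwann-like cells had more of *KCNC4*, at 38.1 CPM on 13 UMIs labelled HVP, where it was enriched too. Those labelled Normal stood at 16.6 CPM on 3 UMIs, too few for the rule, with an interval that overlapped that of fibroblast-like cells. The *FSHR NELL1* cluster carried the Kv3 pore *KCNC2*, at 33.9 CPM (28.5 to 40.0) and 7.70 CPM (3.98 to 13.5). The call labelled Normal rested on 12 UMIs in 6 of 269 cells. Satellite cell-like cells had more *KCNC2*, at 57.1 CPM on 9 UMIs and 20.2 CPM on 3 UMIs, too few for the rule. Schwann-like cells labelled Normal stood at 16.6 CPM, also on 3 UMIs. The silent subunit *KCNS2* was enriched in the *FSHR NELL1* cluster as well, at 29.3 CPM (ratio 13.9) and 57.8 CPM (ratio 29.3).

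The smooth muscle pair held pores and partners of several families. *KCNS3*, a silent partner of Kv2 pores, was at 32.5 CPM (ratio 14.8) labelled HVP and 25.9 CPM (ratio 15.4) labelled Normal, and the beta subunit *KCNAB1* at 19.5 CPM (ratio 33.3) and 19.6 CPM (ratio 31.6). *KCNT1*, a sodium-activated pore, reached 31.0 CPM (ratio 29.6) and 35.1 CPM (ratio 56.5). Some KCN genes that were not enriched in this pair differed there between the libraries. Examples were *KCNIP4*, with 32 UMIs labelled HVP and 1 UMI labelled Normal, and *KCNJ8*, with 296 CPM and 210 CPM. *KCNH2*, the ERG pore of cardiac repolarization, was a gene of blood endothelial-like cells at 42.4 CPM (ratio 12.2) and 40.8 CPM (ratio 18.3). *KCNIP2*, a Kv4 partner, passed there at 2.43 CPM on 14 UMIs labelled HVP and 2.70 CPM on 19 UMIs labelled Normal. In the library labelled HVP, myeloid-like cells had more *KCNIP2*, at 5.59 CPM on 2 UMIs. Mesothelial-like cells stood at 2.50 CPM on 1 UMI, and both had too few UMIs for the rule.

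**Figure D2:**
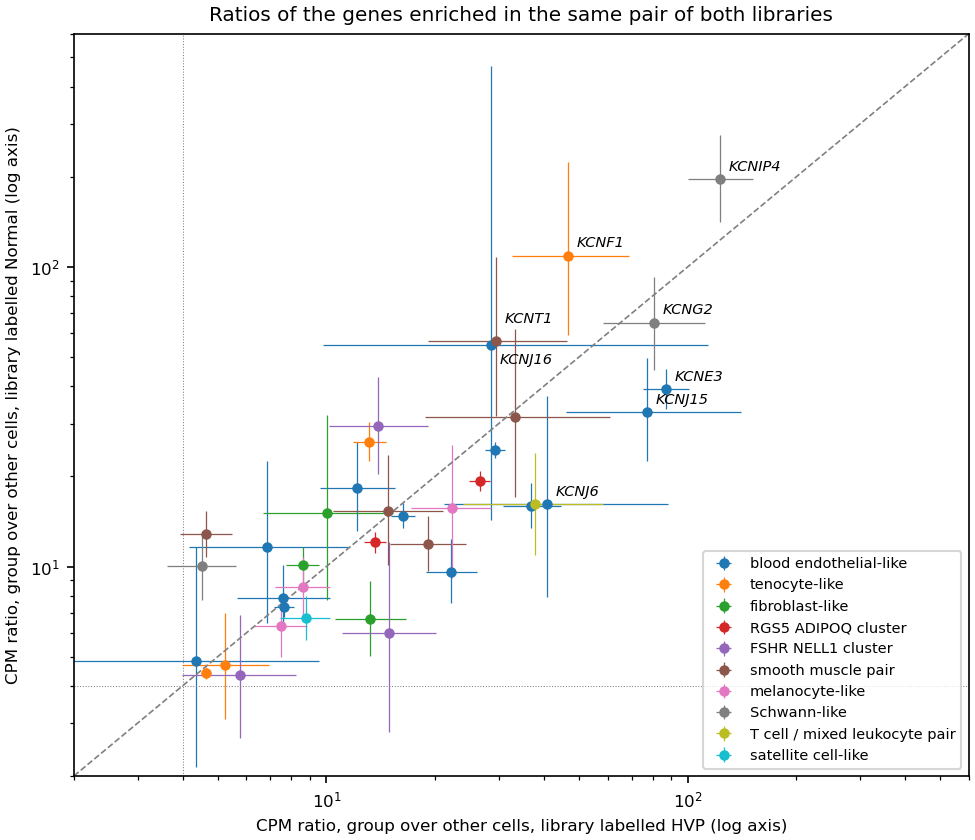
Each point is 1 of 38 calls, with the CPM ratio of the group to the other cells labelled HVP on the x axis and labelled Normal on the y axis, both on log axes, with 95% counting intervals, and with dotted lines at a ratio of 4. The points lie on both sides of the dashed line of equal ratios, with *KCNIP4* in Schwann-like cells at 123 and 197 at the upper end.

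The cell groups differed in how much channel RNA they held in all. Summed over all 79 members, blood endothelial-like cells stood at 3810 CPM (3760 to 3861) labelled HVP and 3698 CPM labelled Normal, and the *RGS5 ADIPOQ* cluster at 2615 CPM and 2366 CPM. T cell-like cells labelled HVP were the only group above them, at 4332 CPM (4072 to 4604), of which *KCNQ5* made up 72.2% and *KCNQ1* 17.9%. Only 8 of these 64 cells held a *KCNQ1* UMI, and 74 of the 185 came from 1 cell. The counting interval does not cover this uneven spread over cells. The lowest were the *FREM2 NPY* cluster labelled Normal, with 477 CPM, and fibroblast-like cells labelled HVP, with 642 CPM. These sums are shares of each group's UMIs, so less channel RNA and more of other RNA cannot be told apart.

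**Figure D3:**
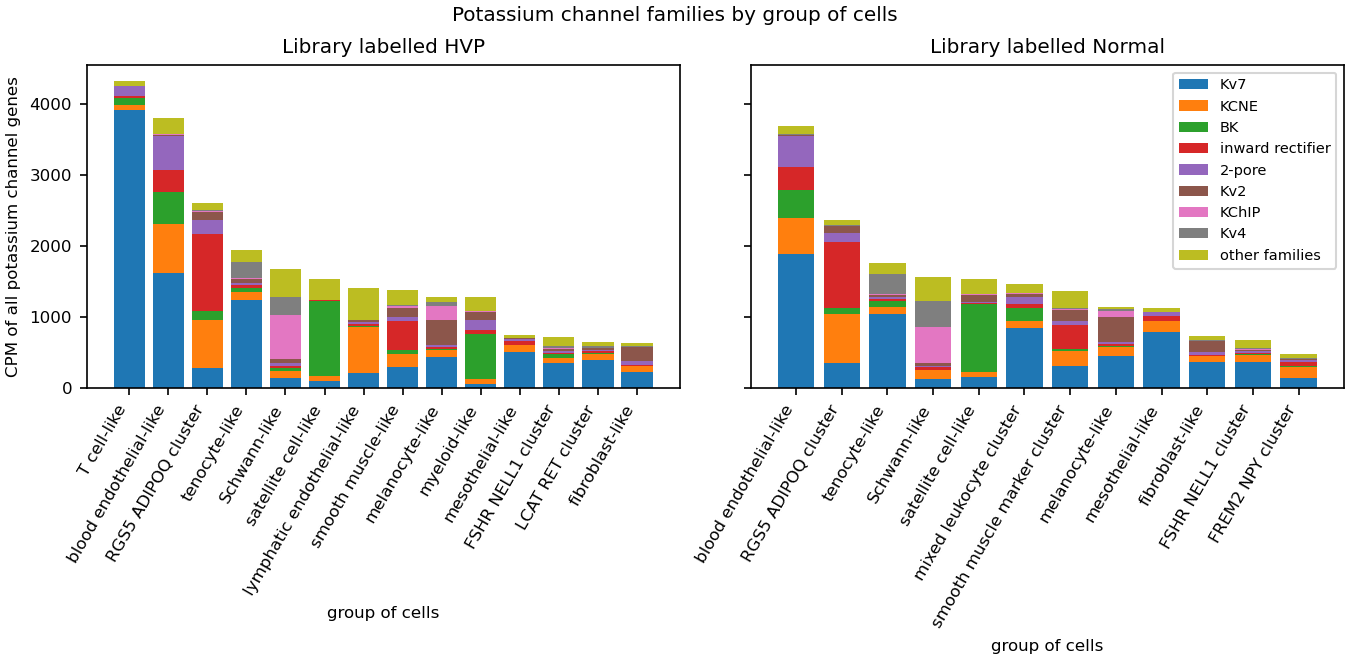
Bars give the CPM of all potassium channel genes in each cluster of each library, stacked by family, with the clusters ordered by their sum. T cell-like cells labelled HVP reach 4332 CPM, 72.2% of it *KCNQ5*, while inward rectifiers are a large block in the *RGS5 ADIPOQ* cluster, where *KCNJ8* stands at 1068 CPM and 906 CPM.

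Of the 79 members, 28 were enriched in no group of either library, and 13 of these had fewer than 10 UMIs in each library. The share of all genes that were enriched in no group is not given here. The count therefore does not show that channel genes differ from other genes. The members with the most UMIs among the 28 were *KCNA2*, a Kv1 pore, with 208 and 133 UMIs, *KCNN2*, a small-conductance calcium-activated pore, with 191 and 115 UMIs, and *KCNK10*, a stretch-sensitive leak channel, with 131 and 84 UMIs. No UMI of *KCNK18* was found in either library, where the Poisson interval reaches up to 0.107 CPM and 0.148 CPM. *KCNJ11*, the pore of the ATP-sensitive channel of muscle and pancreatic islets, had 5 and 12 UMIs.

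Another 15 members were enriched in a group of 1 library or in groups that were not matched. The share of all genes with such a result is not given here either. In the *RGS5 ADIPOQ* cluster labelled HVP, *KCNA1*, *KCNH7*, *KCNK3*, and *KCNMB4* passed with 10 to 17 UMIs each, and 7 of the 17 *KCNH7* UMIs came from 1 cell. *KCNC1*, a Kv3 pore that overlaps the gene *SERGEF*, passed in satellite cell-like cells labelled HVP with 18 UMIs, 8 of them in 1 cell. *KCNG4*, a silent subunit, had 23 UMIs in blood endothelial-like cells labelled HVP and none in the other cells, which is at least 38.2-fold higher against a floor of 3 UMIs over all other cells. All 5 *KCNG4* UMIs labelled Normal lay in blood endothelial-like cells too, but were too few for the rule. *KCNK2*, a stretch-sensitive leak channel, was enriched in the *LCAT RET* cluster labelled HVP (42 UMIs, ratio 5.22) and in the *FREM2 NPY* cluster labelled Normal (14 UMIs, ratio 9.17), which were not each other's best match.

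**Figure D4:**
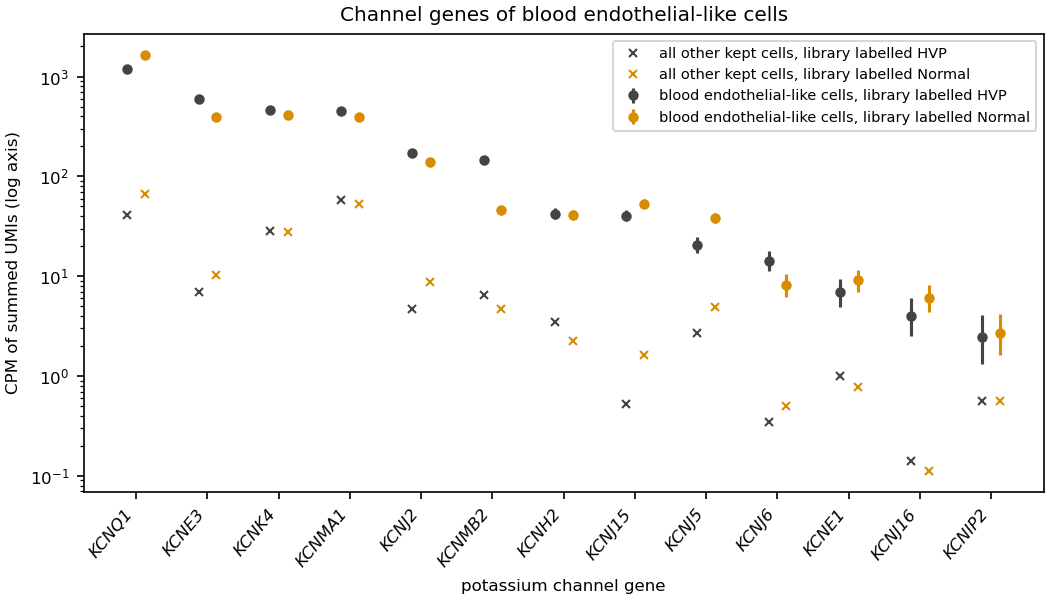
Points give the CPM of the 13 shared channel genes in blood endothelial-like cells, with exact Poisson 95% intervals, and crosses the CPM in all other kept cells, on a log axis for both libraries. *KCNQ1* stands at 1194 CPM labelled HVP and 1629 CPM labelled Normal, and each of the 13 points lies above the cross of its own library.

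Blood endothelial-like cells were not uniform in their channels. At resolution 0.5, each library gave a sub-cluster led by *TCF24* (718 and 471 cells) and one led by *NMNAT1* (387 and 820 cells), and for each of these 4 of the 8 leading genes were shared by both libraries. These sub-clusters and their naming genes were chosen after they were seen, and no KCN gene had formed them. With at least 20 UMIs, 5 of 24 members were over 2-fold higher in the *TCF24* sub-cluster of both libraries, against 3.73% of 10692 genes, and 4 were over 2-fold lower, against 6.04%.

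The higher ones were *KCNQ5*, *KCNE3*, *KCNMB2*, *KCNJ6*, and *KCNK5*. *KCNQ5* stood at 456 CPM in the *TCF24* sub-cluster and 30.2 CPM in the *NMNAT1* sub-cluster labelled HVP, and at 424 CPM and 24.1 CPM labelled Normal, ratios of 15.1 (11.9 to 19.3) and 17.6 (14.5 to 21.6). *KCNE3* followed with 896 CPM against 198 CPM and 988 CPM against 154 CPM, ratios of 4.54 (4.12 to 5.003) and 6.40 (5.88 to 6.97). *KCNMB2* had ratios of 3.31 (2.77 to 3.97) and 8.73 (6.47 to 11.9). The *KCNQ1* pore itself was nearly even, at 1219 CPM against 1162 CPM and 1491 CPM against 1762 CPM, ratios of 1.05 (1.00 to 1.10) and 0.85 (0.81 to 0.88).

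The lower ones included *KCNJ8*, *KCNE4*, and *KCNV1*. *KCNJ8* stood at 5.75 CPM in the *TCF24* sub-cluster and 101 CPM in the *NMNAT1* sub-cluster labelled HVP, and at 4.39 CPM and 89.2 CPM labelled Normal. *KCNE4* gave 6.06 CPM against 69.8 CPM and 13.2 CPM against 64.9 CPM. Both genes are those of the *RGS5 ADIPOQ* cluster, and the sum of the 5 pericyte markers moved with them. It went from 54.2 CPM to 803 CPM labelled HVP and from 72.6 CPM to 472 CPM labelled Normal, with no marker at 0 in any of these sub-clusters. The 10 blood endothelial markers summed to 6686 CPM against 10765 CPM and to 6133 CPM against 10111 CPM, and the median cell held 3456 against 5373 and 3510 against 4780 UMIs. The sum of the 5 adipocyte markers was also higher in the *NMNAT1* sub-cluster, going from 5954 CPM to 25129 CPM labelled HVP and from 7389 CPM to 30677 CPM labelled Normal. *PLIN1* was at 0 in the *TCF24* sub-cluster labelled Normal, and the levels of the single markers are not given here. The part of these values in the result was not tested.

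**Figure D5:**
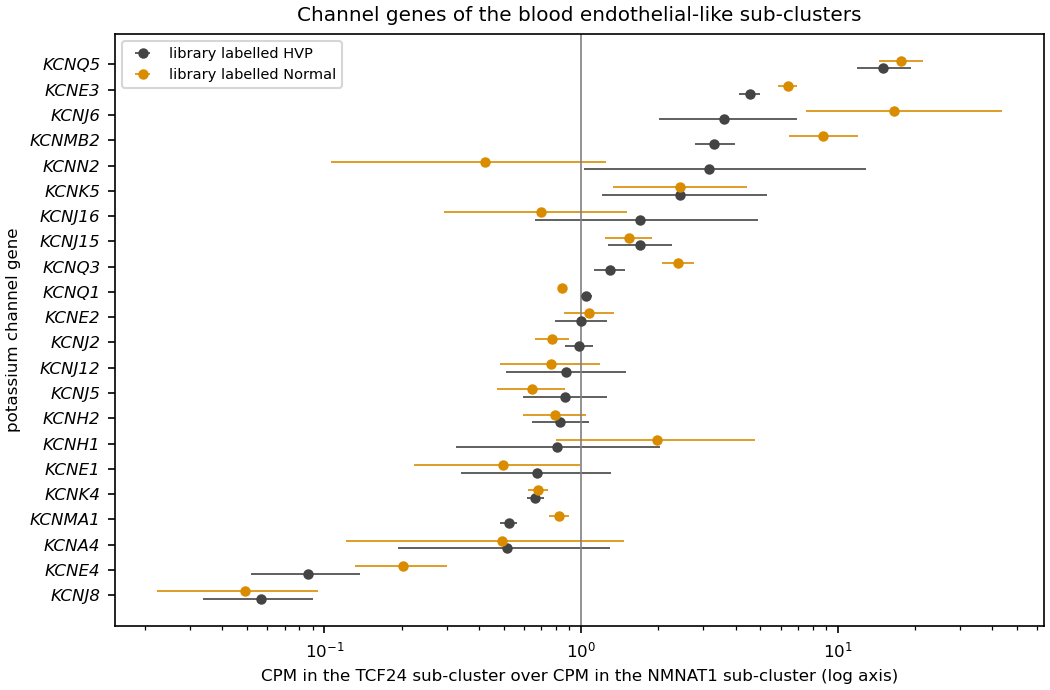
Points give, for the potassium channel genes shown, each with at least 20 UMIs and counts above 0 in both sub-clusters of both libraries, the CPM in the *TCF24* sub-cluster over the CPM in the *NMNAT1* sub-cluster on a log axis, with 95% counting intervals. *KCNQ5* lies furthest to the right, at 15.1 and 17.6, and *KCNJ8* furthest to the left, while *KCNQ1* lies near 1.

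Pore and partner genes were looked for in the same cells, each thinned to 2000 UMIs, for pairs chosen after their values were seen. A UMI of both *KCNQ1* and *KCNE3* was found in 34.7% (31.8 to 37.7) of blood endothelial-like cells labelled HVP and in 26.0% (23.6 to 28.5) of those labelled Normal. Each counted by itself, *KCNQ1* was found in 58.1% and 61.8% of these cells and *KCNE3* in 48.0% and 36.5%. In the *RGS5 ADIPOQ* cluster, *KCNJ8* and *ABCC9*, the sulfonylurea receptor that completes the vascular ATP-sensitive channel, met in 31.9% (28.3 to 35.6) and 27.8% (23.9 to 31.9) of cells. There *KCNJ8* was found in 73.5% and 71.8% of cells and *ABCC9* in 39.2% and 36.7%. *KCND2* and *KCNIP4* met in 9 of 66 and 7 of 45 Schwann-like cells, where *KCND2* was found in 17 and 11 cells and *KCNIP4* in 24 and 18. *KCNMA1* and *KCNMB1*, the pore and beta subunit of the smooth muscle BK channel, met in 3 of 361 and 6 of 622 cells of the smooth muscle pair, where *KCNMA1* was found in 20 and 28 cells and *KCNMB1* in 52 and 131. Whether any pair met more often than the shares of its genes alone would give was not tested. A missing UMI at this depth does not show that a cell lacked the RNA.

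Genes that work with potassium channels were read from a list of 39, of which 33 were in the files. Of these, 15 were enriched in the same pair of both libraries, against 23.1% of 13669 genes with enough UMIs. How many of the 33 had enough UMIs is not given here. The list was fixed with earlier results of these data known, so the count is not evidence of a shared role. Both sulfonylurea receptors lay in the *RGS5 ADIPOQ* cluster, *ABCC9* at 338 CPM (ratio 18.3) and 286 CPM (ratio 16.1) and *ABCC8* at 54.4 CPM (ratio 23.9) and 39.3 CPM (ratio 10.9). The calcium channel genes *CACNA1C*, *CACNA1H*, and *CACNB2* and the calcium release channel *RYR2* were all enriched in the smooth muscle pair, *CACNA1H* at 716 CPM (ratio 23.1) and 755 CPM (ratio 25.6). *CACNA1G*, a low-voltage calcium pore, shared the tenocyte-like cells with *KCNF1* and *KCND2*, at 133 CPM (ratio 7.90) and 165 CPM (ratio 18.1).

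In all kept cells, the median log2 of the CPM labelled Normal over the CPM labelled HVP was 0.06 over 64 members with at least 20 UMIs and 0.07 over 16999 genes. Over 2-fold higher in the library labelled Normal were 4 members, against 5.89% of 17007 genes, and 2 were over 2-fold lower, against 2.28%. These 4 were *KCNJ5* (ratio 2.51, 2.11 to 3.01), *KCNJ16* (2.30, 1.40 to 3.85), *KCNJ15* (2.24, 1.90 to 2.63), and *KCNQ1* (2.17, 2.11 to 2.23), which were all enriched in blood endothelial-like cells. Those cells made up 18.8% of kept cells labelled HVP and 24.6% labelled Normal, and within them the ratios were 1.86 for *KCNJ5*, 1.53 for *KCNJ16*, 1.31 for *KCNJ15*, and 1.36 for *KCNQ1*. Shares of cells are not shares of UMIs. The median blood endothelial-like cell held 4062 UMIs labelled HVP and 4228 labelled Normal, against 5345 and 3818 over all kept cells. From such sums alone, fewer cells of a type and less RNA per cell cannot be told apart. How much the mix of cells and the level within them each gave to the 4 ratios was not tested. The 2 lower ones were *KCNC2* (0.28, 0.19 to 0.39) and *KCNG4* (0.30, 0.09 to 0.81). *KCNC2* went from 141 UMIs to 12 in the *FSHR NELL1* cluster, which held 9.87% of kept cells labelled HVP and 4.92% labelled Normal.

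Within the 7 classes named in both libraries, 22 of 107 gene and class values with at least 20 UMIs differed over 2-fold, against 8.08% of 53068 such values over all genes. *KCND2* in fibroblast-like cells differed the most, at 2.34 CPM labelled HVP and 18.9 CPM labelled Normal, a ratio of 8.06 (4.22 to 17.3). The cells compared were not alike, since the library labelled HVP also held the unmatched *LCAT RET* cluster of 1013 cells, which carried the fibroblast markers *DCN* and *PDGFRA* and had *KCND2* at 22.9 CPM (19.3 to 27.0), beside its 782 fibroblast-like cells, while the library labelled Normal had 1 fibroblast-like cluster of 1283 cells. *KCNMB2* in blood endothelial-like cells was at 0.32 (0.28 to 0.36) of its level labelled HVP, and *KCNIP1* in tenocyte-like cells at 0.16 (0.04 to 0.44). The endothelial sub-clusters were mixed differently, with 718 *TCF24* and 387 *NMNAT1* cells labelled HVP against 471 and 820 labelled Normal. *KCNMB2* stood at 205 CPM labelled HVP and 102 CPM labelled Normal in the former sub-cluster, and at 62.1 CPM and 11.7 CPM in the latter. The part of this mix in the ratio was not tested. *KCNF1* in tenocyte-like cells had a ratio of 0.97 (0.79 to 1.18), and *KCNJ8* in the matched *RGS5 ADIPOQ* cluster 0.85 (0.80 to 0.90). With 1 library each, a difference between libraries cannot be told apart from a difference between groups.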

How the data were processed

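The deposited values were UMI counts per gene and barcode, which the authors made with Cell Ranger 7.1.0 (STAR) on GRCg7b from 10x 3′ libraries. Barcodes with more than 1000 genes, the study's own limit, were kept. The study states fewer cells per group after its filtering than were kept here, and what else it removed is not known. Doublets were kept too: Scrublet (scanpy 1.11.5) called 5 cells labelled HVP, too few of 5866 to rely on, and 130 labelled Normal. The library totals were 36100448 UMIs (HVP) and 26865572 UMIs (Normal). Limits of 300 and 4000 genes and of 5% mitochondrial UMIs, tried as an alternative, left 3686 and 3726 barcodes, 7412 in all against the 11330 kept. Of the 14 shared barcodes, 11 were kept in both libraries.

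Each library was clustered alone in Seurat 5.3.0 (R 4.3.3; 2000 variable genes without KCN genes, 20 components, resolution 0.2). Classes needed at least 3 markers and no more markers of another type among the 10 leading genes. UMIs were summed per cluster as CPM with exact Poisson intervals, ratios had conditional binomial intervals, and shares of cells had Clopper-Pearson intervals (SciPy 1.17.1). TMM scaling came from edgeR 4.0.16. The ratio intervals were tested on simulated data. All 79 members matched the RefSeq gene table of GRCg7b, which gave the gene spans.

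Full values were given for *KCNJ8*, *KCNF1*, and every member enriched in the same cells of both libraries. The others were given by class, ratio, range, or count. The members, markers, and lists were chosen with earlier results of these data known. The matched pairs, the sub-clusters, the same-cell pairs, and the skeletal muscle check were added after the data were seen. In all, 17 alternative settings were tried. Sequences of the channel genes are not analysed here. Some genes are counted in the totals but not reported here by name or drawn.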

Additional observations from a re-analysis of the deposited data

Results flagged for a closer look

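Channel RNA was also found in the barcodes left out for having 1000 genes or fewer, which the comparisons did not use. Their KCN genes summed to 2918 CPM (2838 to 3000) over 1291 barcodes of the library labelled HVP and to 2764 CPM (2691 to 2839) over 1517 barcodes of the library labelled Normal, against 1721 CPM and 1907 CPM in the kept cells. *KCNQ1* led in both, at 789 CPM and 737 CPM, followed by *KCNQ5* at 510 CPM and 583 CPM.

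In 2 cases, a member lay above the other cells in one library and below them in the other, and the difference between the libraries was not tested. *KCNQ1* had a ratio of 3.37 (2.90 to 3.90) in T cell-like cells labelled HVP and of 0.38 (0.34 to 0.43) in the matched mixed leukocyte cluster labelled Normal. Of the 185 *KCNQ1* UMIs in the former, 74 came from 1 cell, and 8 of 64 cells held any. *KCNB2* had no UMI in 33 satellite cell-like cells labelled HVP, a ratio of 0, and a ratio of 2.25 in 39 such cells labelled Normal, where 13 of its 15 UMIs came from 1 cell.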

How the results depend on the processing

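No paired analysis was possible because each group had 1 library. Across the alternatives, the number of enriched members ran from 42 to 58 in the library labelled HVP and from 38 to 55 in the library labelled Normal, with 26 to 44 in the same pair of both libraries and 16 to 33 in the same named class. Of 82 ratios, 73 were at least 4 at resolution 0.5, 80 with both libraries clustered together, and 77 with more than 500 genes. In blood endothelial-like cells labelled Normal, *KCNJ6* fell to a ratio of 0.50 at resolution 0.5 and to 0.40 with more than 500 genes, *KCNMB2* to 0.68 at resolution 0.5, and *KCNIP2* to 0 in barcodes of 300 to 4000 genes with under 5% mitochondrial UMIs. At resolution 0.5, both ratios were those of the *NMNAT1* sub-cluster alone, with the *TCF24* sub-cluster among the other cells. *KCNJ6* stood at 24.4 CPM in the *TCF24* and 1.47 CPM in the *NMNAT1* sub-cluster labelled Normal, and *KCNMB2* at 102 CPM and 11.7 CPM. In blood endothelial-like cells labelled HVP, *KCNIP2* fell to a ratio of 2.80 with the mean over cells of CPM per cell. The cause of the falls under the other settings was not tested.

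Between the libraries, 4 members were over 2-fold higher in the library labelled Normal and 2 lower. With at least 1 UMI, 11 were higher and 5 lower, and with at least 50 UMIs 1 was lower. Under the same limits on genes and mitochondrial UMIs, 9 were higher. With the mean over cells of CPM per cell, 1 was higher and 4 were lower. In the endothelial sub-clusters labelled Normal, without called doublets, an alternative added after the data were seen, the ratio was 24.6 for *KCNQ5* and 0.09 for *KCNE4*. Members on 10 to 20 UMIs had wide intervals, and depth limits what can be said of them.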
